A study of Caenorhabditis elegans with 2 samples.

Results

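The peaks described here are those of AMA-1 on the X chromosome, where AMA-1 is the largest subunit of RNA polymerase II, as mapped by chromatin immunoprecipitation followed by sequencing (ChIP-seq). All entries on X were taken from 4 lists on genome build ce11, with no choice by value. X held 144 of the 1103 peaks of the optimal list, which is the authors' final list from the irreproducible discovery rate (IDR) procedure. It held 4679 of the 30000 peaks of the relaxed list called on pooled reads, 3360 of the 27847 relaxed peaks of replicate 1 and 5213 of the 30000 relaxed peaks of replicate 2. The worms were whole young adults of N2, the laboratory wild type of Caenorhabditis elegans, of mixed sex per the labels, with no treatment given. There was 1 group of 2 biological replicates and no second condition, so X was compared with chromosomes II, III, IV and V of the same libraries. Chromosome I was not used in these comparisons. Whole animals mix all tissues and both sexes, and the share of males is not given in the labels, so fewer cells of a type with polymerase at a gene and less polymerase per cell cannot be told apart. The relaxed lists are labelled as peaks together with background, so an entry in them may lie in background. The signal value attached to a peak is the authors' score, and here it serves to order peaks inside 1 list at a time. Read totals are not in the files used here, so depth is unknown and the exact 95% intervals (Clopper-Pearson) cover the counting of peaks only.

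RNA polymerase II transcribes protein-coding genes and many non-coding RNAs, including most microRNA (miRNA) precursors, while transfer RNA (tRNA) genes are transcribed by RNA polymerase III. In C. elegans, hermaphrodites carry a pair of X chromosomes and males a single one. A dosage compensation complex lowers transcription from both X chromosomes of hermaphrodites, and the X is largely silent in much of the germline. Many worm genes are joined to a spliced leader after transcription, so the annotated 5′ end of a gene is often the splice site and not the place where transcription starts.

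The reference bases at 6 of the 20 strongest optimal X peaks are shown. These peaks stand for the kinds of places where the strongest X summits lay. Among them are an exon of a long non-coding RNA, a non-coding RNA gene of 711 bp and the upstream side of an miRNA cluster. The others are the downstream side of a metabolic gene, an intron of a transcription factor gene and a tRNA gene inside an intron. Each stretch has 121 bases centred on the summit and is given 5′ to 3′ on the plus strand of the RefSeq copy of the ce11 assembly. In the first 5 lines capitals mark matches, on either strand, to the repeat GAGAGA, to the TATA box letters TATAAA or to the polyadenylation signal letters AATAAA. Other stretches among the 20 held no match, such as those at the strongest X summit (16931013, in C30E1.9), at W05H9.3 and at tatn-1. The C30E1.9 line shown is that of a weaker summit, at 16930012. Matches in the lines shown therefore do not speak for all 20 peaks. In the last line capitals mark the 39 bases of the annotated tRNA gene that lie within the stretch.
C30E1.9 non-coding exon, chrX:16929952-16930072: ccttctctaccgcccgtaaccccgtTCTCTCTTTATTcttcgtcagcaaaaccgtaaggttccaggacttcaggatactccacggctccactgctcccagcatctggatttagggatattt
tts-1 non-coding exon, chrX:1504519-1504639: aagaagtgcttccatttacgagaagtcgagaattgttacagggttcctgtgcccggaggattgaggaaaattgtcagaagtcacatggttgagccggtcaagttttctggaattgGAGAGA
upstream of mir-54, in an F09A5.3 intron, chrX:13145116-13145236: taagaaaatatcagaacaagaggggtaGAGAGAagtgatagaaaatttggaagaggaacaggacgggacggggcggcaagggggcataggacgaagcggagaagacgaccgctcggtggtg
downstream of gpd-3, chrX:3111890-3112010: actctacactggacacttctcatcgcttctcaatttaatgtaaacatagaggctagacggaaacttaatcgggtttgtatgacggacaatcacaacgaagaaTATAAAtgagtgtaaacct
mdl-1 intron, chrX:6743017-6743137: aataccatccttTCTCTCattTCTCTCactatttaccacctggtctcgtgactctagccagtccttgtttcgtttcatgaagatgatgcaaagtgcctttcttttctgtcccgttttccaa
tRNA gene in an nhr-17 intron, chrX:12665146-12665266: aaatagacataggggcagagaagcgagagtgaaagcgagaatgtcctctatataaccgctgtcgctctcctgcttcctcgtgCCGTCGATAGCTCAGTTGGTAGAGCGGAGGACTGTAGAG

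The strongest X peaks lay at non-coding RNA genes. The highest signal value on X, 288, was that of a summit at 16931013 in an exon of C30E1.9, a non-coding RNA gene of 14770 bp on the plus strand, and it ranked 9 among all optimal peaks. The same interval, chrX:16929794-16931921, carried 3 further summits with signal values of 234, 217 and 156, the first of these 98 bp past the annotated 5′ end of the gene. These 4 entries share 1 deposited interval, and the strongest peaks overlapping it ranked 1 in replicate 1 and 10 in replicate 2. A further summit lay near the far end of the gene, 14316 bp from its 5′ end, with a signal value of 83.4. The runner-up gene was tts-1, a non-coding RNA studied in dauer larvae and long-lived daf-2 mutants, with a signal value of 242 (rank 11), and ranks of 9 in replicate 1 and 19 in replicate 2. Its summit lay inside the 711 bp gene, 262 bp from the 5′ end. At W05H9.3, a further non-coding RNA gene, the strongest summit had a signal value of 186 and ranked 39 in replicate 1 and 18 in replicate 2. All 3 genes thus stood near the top of either replicate's own list.

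The strongest summit tied to miRNA genes lay 82 bp upstream of mir-54, at 13145176 within an intron of F09A5.3, a protein-coding gene on the opposite strand. Its signal value was 163 and its ranks were 62 in replicate 1 and 27 in replicate 2. The same summit lay 252 bp upstream of mir-55 and 389 bp upstream of mir-56, members of the mir-51 family that sit in a row on the minus strand. A neighbouring summit with a signal value of 108 lay 206 bp upstream of mir-55b on the plus strand, and overlapping genes leave the origin of both summits ambiguous. Of 74 miRNA genes annotated on X, 8 held an optimal summit (10.8%) and 20 a pooled relaxed summit (27.03%). The corresponding shares of protein-coding genes on X were 2.23% and 33.7%, so miRNA genes lay above them in the optimal list and below them in the pooled one. Their lengths differ from those of protein-coding genes, and no allowance was made for this. Besides the mir-54 cluster these were mir-8196a (signal value 71.9), mir-34 (67.2), mir-62 (43.4, a summit inside ugt-50) and mir-239a (41.7). mir-34, whose relatives in mammals are targets of p53, had its summit at the 3′ end of the annotated precursor, and it belonged to a run of 5 summits. Of 276 tRNA genes on X, 5 held an optimal summit (1.81%), near the 2.23% of protein-coding genes, and WBGene00023110 and WBGene00023111 share 1 summit. A pooled summit was held by 52 (18.8%), below the 33.7% of protein-coding genes. For tRNA genes too, lengths differ from those of protein-coding genes, and no allowance was made. The tRNA gene with the strongest summit, WBGene00009555, lies in an intron of nhr-17 on the opposite strand, with the summit 22 bp upstream of the tRNA gene and a signal value of 102. Whether this summit belongs to the tRNA gene or to nhr-17 cannot be told from its position. Of 38 lincRNA genes 1 held an optimal summit, linc-103 (60.1), and of 33 snoRNA genes 1, C34E11.20 (41.7), shares of 2.63% and 3.03% that lie near the 2.23% of protein-coding genes. Non-coding genes with an optimal summit numbered 33 on X in all. This is a count of genes and not of sites, because several share a summit, as mir-54, mir-55 and mir-56 do. Their share of all non-coding genes on X was not computed, so the count cannot be read as many or few.

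A smaller share of protein-coding genes held an optimal summit on X than on the autosomes, by less than the test over chromosomes can resolve. A gene was counted as holding a summit that lay between 500 bp upstream of its 5′ end and its 3′ end. The median length of protein-coding genes was 2548 bp on X and 1908 bp on II to V. No allowance was made for length in any of the gene shares. On X 61 of 2731 protein-coding genes did so (2.23%), against 3.29% on II to V together and 2.59% to 5.08% on the single autosomes. The share over all 19973 protein-coding genes of the annotation was 3.18%. X lay below each of the 4 autosomes, with p = 0.4 in a two-sided exact permutation test over the 5 chromosomes, whose smallest possible p is 0.2 and which therefore cannot reach 0.05. With gene bodies only, without the upstream 500 bp, the shares were closer, at 1.94% on X and 2.28% on II to V. In the pooled relaxed list the share was 33.7% on X and 35.6% on II to V, against 37.3% over all genes. Of the 61 genes 41 held 1 optimal summit and 20 held several.

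Some of the protein-coding genes with optimal summits encode transcription factors, and these are given as examples, since the class was not counted as a list. nhr-17, which encodes a nuclear hormone receptor, held 5 optimal summits, the most of any protein-coding gene on X. Their signal values ran from 44.1 to 102. The summit of 102 also lay 22 bp upstream of the tRNA gene WBGene00009555, and another (51.5) lay 11 bp upstream of nlp-76. Which gene such shared summits belong to cannot be told from position, and cah-4, mxl-3 and ZK470.2 held 4 each. mxl-3, which encodes a Max-like basic helix-loop-helix factor, held 4 summits with signal values of up to 82.0, and a stronger summit (124) lay 83 bp past its annotated end. The strongest of these ranked 226 in replicate 1 and 53 in replicate 2. mdl-1, which encodes a Mad-like factor, had its strongest summit in an intron, with a signal value of 91.6 and a rank of 156 in each replicate. A summit at the neighbouring non-coding genes R03E9.7 and R03E9.10, 142 bp from mdl-1, reached 119.4. The interval of that peak extends into mdl-1, where it carries a further summit (43.1) in coding sequence. lin-14, the heterochronic gene that sets the timing of larval stages, held 2 intronic summits (52.4 and 51.3), 17307 and 15598 bp from its annotated 5′ end. ceh-60, which encodes a PBC-class homeodomain protein, had a summit of 42.7, rank 947 in the optimal list, that ranked 374 in replicate 1 and 3530 in replicate 2. The summit at nhr-14 (42.3) ranked 966 in the optimal list, so these last genes lay low in it.

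The other named protein-coding genes have varied roles, in signalling, metabolism, protein folding and the cytoskeleton, and they too are single examples. osm-11, which encodes a secreted co-ligand of the Notch receptors, carried the strongest summit in coding sequence, 314 bp from its 5′ end, with a signal value of 143 and ranks of 55 in replicate 1 and 54 in replicate 2. gpd-3, which encodes the glycolytic enzyme glyceraldehyde-3-phosphate dehydrogenase, held a summit of 65.5, and a summit of 128 lay 141 bp past its end, with ranks of 71 and 89 in replicates 1 and 2. At cah-4, which encodes a carbonic anhydrase, 4 summits ran from 54.2 to 91.6. tatn-1, which encodes tyrosine aminotransferase, had summits of 90.5 and 77.8 that ranked higher in replicate 1 (64 and 49) than in replicate 2 (355 and 1560). The summits of pdi-2, which encodes a protein disulfide isomerase, went the other way: the one near the 5′ end (83.6) ranked 1483 in replicate 1 and 169 in replicate 2, and the one in the 3′ UTR (65.0) ranked 15762 in replicate 1 and 180 in replicate 2. sams-1, which encodes S-adenosylmethionine synthetase, had a summit of 72.7 that ranked 7596 in replicate 1 and 153 in replicate 2. A second sams-1 summit (49.2) ranked 2247 in replicate 1 and was overlapped by the same replicate 2 peak. Further named members were act-4 (actin, 81.7), mai-1 (a homologue of the mitochondrial ATPase inhibitor, 80.8), ftt-2 (a 14-3-3 protein, 70.6), aak-2 (the catalytic subunit of AMP-activated kinase, 56.0), pccb-1 and pcca-1 (propionyl-CoA carboxylase subunits, 50.5 and 46.2), hsp-3 (the endoplasmic reticulum Hsp70, 47.2) and his-24 (a linker histone, 44.2). H40L08.9 and H40L08.3 share the strongest promoter summit (111).

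Gene lists with members on X differed in how often they held peaks. The lists were chosen with earlier results of these data known, and they are described by counts beside the background of all genes, which was 43.3% in replicate 1 and 35.6% in replicate 2; on X alone it was 35.0% and 36.9%. All 6 genes of the heat shock, gpd, enolase and elongation factor list held a summit in both replicates (eef-1A.2, gpd-2, gpd-3, hsp-3, hsp-25 and hsp-43). Of 23 nuclear hormone receptor genes 15 held one in replicate 1 and 17 in replicate 2, with the same 15 in both, and nhr-167 was the first without a pooled summit. Muscle genes held a summit in 8 of 9 cases in replicate 1 and 5 of 9 in replicate 2, and myo-2, a pharyngeal myosin, was the first without a pooled summit. Of 33 chemoreceptor genes 2 held one in each replicate (6.06%). Neuropeptide genes (flp and nlp) gave 9 of 32 in replicate 1 and 5 of 32 in replicate 2, and nlp-76, whose summit also lies in nhr-17, was the member with an optimal summit. Neuronal genes gave 5 of 13 in each replicate (38.5%), near the share of all X genes, and homeobox ceh genes 5 of 18 in replicate 1 and 4 of 18 in replicate 2.

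The cuticle collagen list differed between the replicates. Of 31 cuticle collagen genes on X 5 held a summit in replicate 1 (16.1%) and 10 in replicate 2 (32.3%), with 1 held in both. The shares of all protein-coding genes on X were 35.0% and 36.9%, so the list lay below them in replicate 1 and near them in replicate 2. The intestinal list, the vitellogenin yolk protein genes vit-1 to vit-5 with elt-2 and pept-1, gave 1 of 7 in replicate 1 and 0 of 7 in replicate 2. That member was vit-2, whose summit ranked 376 in replicate 1. Of the 6 genes that signal X dose or start dosage compensation, fox-1 and sdc-1 held a relaxed summit in both replicates, sex-1 in replicate 1, and xol-1, ceh-39 and sdc-2 in neither. None of these 6 was in the optimal list. Both cytosolic ribosomal protein genes on X were absent from the optimal list, rpl-11.2 held a pooled summit, and no mitochondrial ribosomal protein gene is on X. Markers of tissues on any chromosome were checked in the same way, 5 per tissue, beside 43.3% of all protein-coding genes in replicate 1 and 35.6% in replicate 2. Body wall muscle markers held summits in 4 of 5 cases in replicate 1 and 5 of 5 in replicate 2, neurons in 3 and 4, and cuticle and epidermis in 3 and 3. Intestine gave 2 in replicate 1 and 0 in replicate 2, and sperm 1 and 0. In the optimal list 1 of 5 intestine markers held a summit, against 0 of 5 in each other tissue. The share over all protein-coding genes in that list was 3.18%.

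X summits lay less often at promoters and more often at non-coding exons than summits on II to V. Each summit was put in the first class that applied, starting with promoters (the 500 bp before a protein-coding gene) and going on to UTRs (5′ before 3′), coding sequence, exons of non-coding genes, introns, the 500 bp past a gene's end, and the space between genes. In the optimal list 11 of 144 X summits were at promoters (7.64%, interval 3.87% to 13.3%), against 20.2% on II to V, where single chromosomes ran from 14.7% to 23.9%. Of all bases 7.51% were promoter on X and 10.02% on II to V. Non-coding exons held 10.4% of the X summits and 3.93% of those on II to V, although such exons cover 2.90% of X and 3.50% of II to V. Of these 15 X summits 4 are those of the single C30E1.9 interval. 5′ UTR summits made up 2.08% on X and 5.83% on II to V, and 3′ UTR summits 6.94% and 3.68%. Coding sequence held 24.3% on X and 31.8% on II to V, while intron (20.8% and 14.4%), downstream (11.8% and 9.63%) and intergenic summits (16.0% and 10.5%) were each more frequent on X. For promoters, both UTR classes and non-coding exons X lay outside the range of the 4 autosomes (p = 0.2 for each in the same permutation test, the smallest it can give). It also lay above that range for introns, downstream stretches and intergenic space (p = 0.4 for each in the exact permutation test), and within it for coding sequence. The strongest 5′ UTR summit was that of unk-1 (59.5) and the strongest 3′ UTR summit that of ftt-2.

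**Figure D1:**
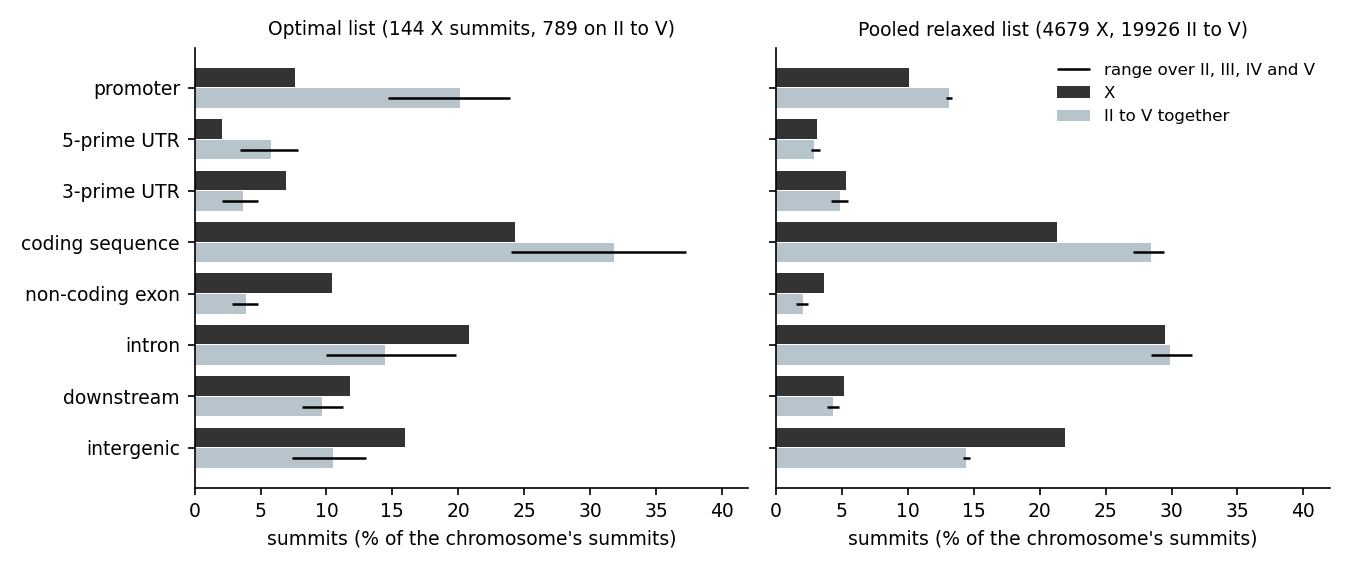
Bars give the percentage of summits in each feature class on X (dark) and on chromosomes II to V together (light), in the optimal list at left and the pooled relaxed list at right. Lines give the range over the single autosomes, and the dark promoter bar lies below that range in both lists (7.64% and 10.1%).

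The larger pooled list gave the same order for promoters (10.1% on X, 13.1% on II to V), coding sequence (21.3% and 28.4%), non-coding exons (3.61% and 2.05%) and intergenic summits (21.9% and 14.4%). It did not for 5′ UTRs (3.10% and 2.92%) or introns (29.5% and 29.9%). Intergenic bases make up 30.4% of X and 20.96% of II to V, so the higher intergenic share on X stood beside a larger intergenic space. Promoter bases make up 7.51% of X and 10.02% of II to V, and coding bases 19.1% and 24.1%. The lower pooled promoter and coding shares on X thus stood beside smaller promoter and coding spaces. The optimal summits were also sorted by what gene they lay in, a count chosen after the data were seen. On X 61.8% lay in a coding gene or its 500 bp upstream, against 71.1% to 80.9% on the single autosomes. Those in non-coding genes alone made up 13.9% on X and 2.87% to 8.22% on the autosomes, and those in no gene 24.3% and 13.5% to 21.1%. These are shares of the 144 X summits, 20 of which lay in several genes.

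Along the chromosome, optimal summits were spread over X, with gaps and short runs. The first lay at 1010941 and the last at 17480524 of 17718942 bp, so the first 1 Mb held none, although it held 133 pooled relaxed peaks. The other full 1 Mb bins held 1 to 24 optimal summits, and the median over the 17 full bins was 6. The 3 fullest bins were the seventh (24, around W05H9.3 and mdl-1), the fourteenth (18, around the mir-54 cluster, mxl-3 and cah-4) and the fifth (12). The longest stretch without one was 972296 bp, from 5120289 to the promoter summit of hsp-3 at 6092585. The outer parts of X (20% of its length at each end) held 34.0% of its optimal summits and 36.3% of its protein-coding genes. The corresponding shares of summits were 23.0% on II, 23.0% on III, 36.3% on IV and 22.2% on V, so X stood close to IV. In the middle 20% of its length, which held 11.1% of the optimal X summits, the strongest was in coding sequence of F46H5.3 (80.3). That part held 20.3% of the pooled relaxed X peaks, 19.9% of those of replicate 1 and 20.7% of those of replicate 2. It also held 20.7% of the protein-coding genes on X.

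**Figure D2:**
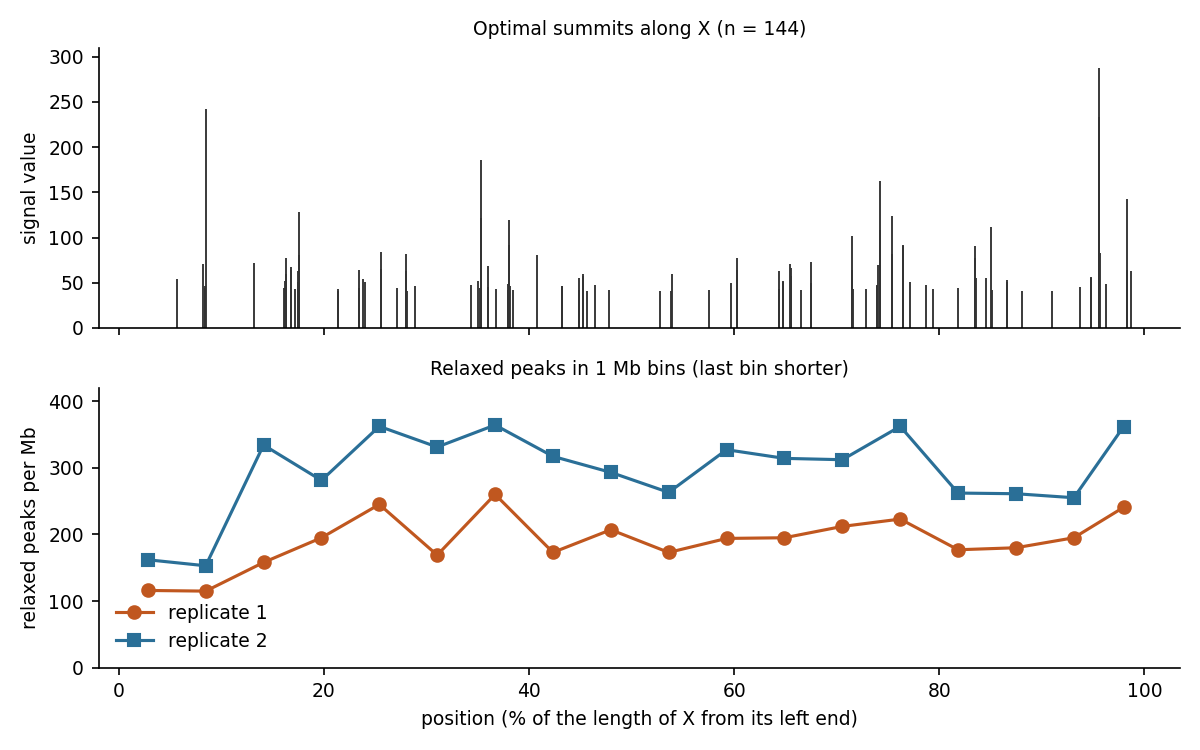
The upper panel gives the signal value of each of the 144 optimal X summits by position, as a percentage of the length of X from its left end. The lower panel gives relaxed peaks per Mb in 1 Mb bins for replicate 1 (circles) and replicate 2 (squares), and replicate 1 lies below replicate 2 in every bin.

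Gaps of at most 1000 bp between consecutive optimal summits were more frequent on X, at 35.0% of 143 gaps, against 17.2% to 26.6% on the autosomes. The median gap did not set X apart: it was 9566 bp on X, against 7075 bp on II, 11900 bp on III, 26278 bp on IV and 4762 bp on V. Runs of summits each at most 1000 bp from the next, a grouping chosen after the data were seen, held 75 of the 144 X summits (52.1%, interval 43.6% to 60.5%), against 26.0% to 40.7% on the autosomes. The interval of II (33.9% to 47.8%) overlapped that of X. X had 10 runs of 3 or more, against 10 on II, 7 on III, 8 on IV and 13 on V. The longest autosomal run held 10 summits, on II. On X the longest run covered 4235 bp with 8 summits, from W05H9.3 to the upstream side of linc-103. One of its members was the strongest intergenic X summit (122, at 6253964). The others were at cah-4 (6 summits), mir-34 (5), mxl-3 (5), the mdl-1 and R03E9.10 pair (4), nhr-17 with its tRNA gene (4), C30E1.9 (4), mai-1 and spc-1 (3), ZK470.2 (3) and F13E6.1 (3). The 144 X summits thus made up 94 runs and single summits, and some runs cover several genes, so whether summits of 1 run come from 1 source was not tested.

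X carried fewer optimal peaks for its length than the autosomes. It had 8.13 optimal peaks per Mb (interval 6.85 to 9.57), against 13.4 on II, 15.2 on III, 8.35 on IV and 10.99 on V (p = 0.4, exact permutation test). X lay lowest, but IV lay inside its interval. X made up 17.7% of the genome and 13.1% of the optimal list (11.1% to 15.2%). The replicates differed in the density of their relaxed lists on X. Replicate 1 had 190 peaks per Mb on X and 285 on II to V, while replicate 2 had 294 on X and 292 on II to V (exact permutation test, p = 0.4 in replicate 1 and p = 1 in replicate 2). Peaks covered 5.63% of X and 8.43% of II to V in replicate 1, and 9.41% and 9.30% in replicate 2.

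The share of peaks on X depended on rank in replicate 2 but little in replicate 1. Among the 1103 strongest peaks of each list, X held 12.2% in replicate 1 and 13.4% in replicate 2. Among the 10000 strongest it held 11.2% and 16.5%. From rank 501 to 1103 the shares were 11.1% and 13.3%, with overlapping intervals, and from rank 10001 to 15000 they were 11.6% and 17.4%. The replicates were therefore alike on X at the top of their lists and apart further down.

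**Figure D3:**
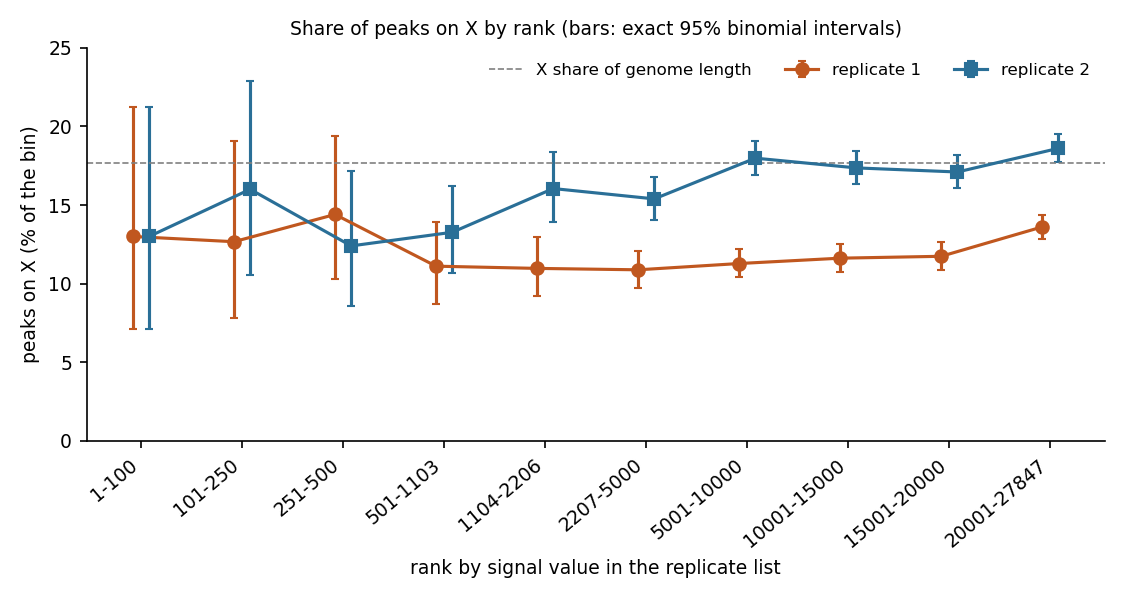
Points give the percentage of peaks on X in bins of rank by signal value for replicate 1 (circles) and replicate 2 (squares), with exact 95% binomial intervals. The dashed line is the share of the genome length that X makes up (17.7%), and replicate 2 reaches 18.6% in the last bin while replicate 1 stays between 10.9% and 14.4%.

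Replicate 1 gave 0.645 relaxed peaks on X for each peak of replicate 2, against 0.978 on II to V and 0.9504 to 1.01 on the single autosomes (exact permutation test, p = 0.2, the smallest possible). The deficit ran along the whole chromosome. In each of the 17 full bins of X replicate 1 had fewer peaks, with ratios from 0.473 to 0.765, whereas on II, III, IV and V it had fewer in 7 of 15, 6 of 13, 8 of 17 and 9 of 20 bins. It also held in every feature class, with ratios on X of 0.573 in introns, 0.579 between genes, 0.687 at promoters and 0.779 in coding sequence. On II to V these ratios were 0.875, 0.665, 1.01 and 1.24, so that coding sequence there had more peaks in replicate 1. Genes showed the same lean. On X 24.6% of protein-coding genes held a summit in both replicates, 10.4% in replicate 1 alone and 12.3% in replicate 2 alone. On II to V the shares were 27.9%, 14.3% and 5.74%. Germline and oocyte markers, on any chromosome, held a summit in 5 of 5 cases in replicate 1 (gld-1, glp-1, pgl-1, mex-5 and puf-5) and in 1 of 5 in replicate 2 (puf-5). The shares over all protein-coding genes were 43.3% and 35.6%. These 5 genes are 1 of the tissue marker lists, and those of other tissues are given above. The part of the germline markers in the difference between replicates on X was not tested.

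Agreement of the replicates on X depended on which replicate was asked. Of the replicate 1 peaks on X 58.5% (interval 56.8% to 60.2%) were overlapped by at least 1 base of a replicate 2 peak, against 51.5% on II to V and 50.9% to 52.0% on the single autosomes. In the other direction 41.55% (40.2% to 42.9%) of the replicate 2 peaks on X were overlapped, against 52.7% on II to V and 51.4% to 53.6% on the single autosomes. X lay outside the autosomal range both ways, above it in the first direction and below it in the second, with p = 0.2 each in the exact permutation test, the smallest possible. The first direction compares with the longer X list and the second with the shorter one. When the 3000 strongest peaks of each chromosome were taken from each list, an alternative added after the data were seen, the shares were 47.5% on X and 48.2% on II to V in the first direction, and 48.7% and 49.8% in the second. The higher share on X in the first direction was not there in that comparison. Bases in peaks of both replicates made up 17.0% of those in peaks of either on X, and 18.9% to 19.6% on the autosomes. In overlapping pairs the summits lay a median of 132 bp apart on X, against 121 to 130 bp on the autosomes, and the Spearman correlation of signal values over the 1966 pairs on X was 0.35, within the 0.29 to 0.41 of the autosomes. That correlation is over peaks of the same 2 libraries and describes them only.

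**Figure D4:**
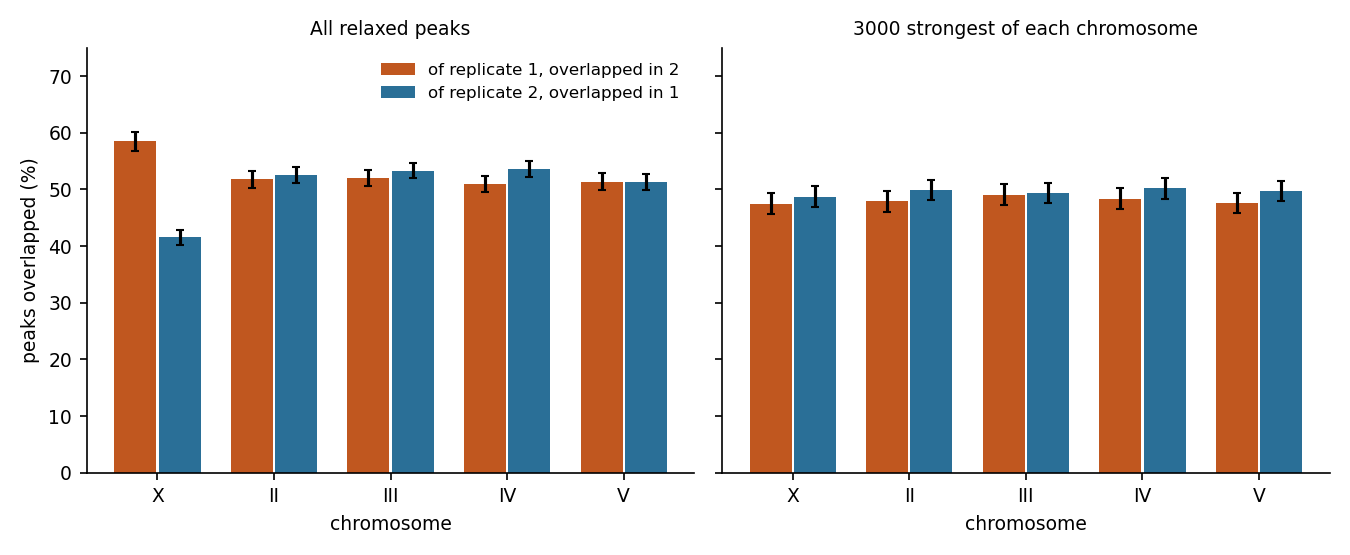
Bars give, for X and then II to V, the percentage of replicate 1 peaks overlapped in replicate 2 (orange) and of replicate 2 peaks overlapped in replicate 1 (blue), with exact 95% binomial intervals. With all relaxed peaks (left) the X bars part to 58.5% and 41.55%, and with 3000 peaks per chromosome (right) they lie at 47.5% and 48.7%.

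Most optimal X peaks had an overlapping peak in the relaxed list of each replicate. Such overlap was largely built in, because the optimal list equalled the 1103 strongest peaks called on the pooled reads of both replicates. Of the 144 peaks 6 had no overlapping peak in replicate 1 and 4 had none in replicate 2, against 19 and 11 of the 789 on II to V. Among the 1103 strongest peaks of replicate 1 were 78 of the 144 X peaks (54.2%), and among those of replicate 2 were 118 (81.9%). On II to V the shares were 56.1% and 78.1%, inside the X intervals (45.7% to 62.5% and 74.7% to 87.9%). A rank past 5000, or no overlapping peak, was seen for 26 X peaks in replicate 1 (18.1%) and for 4 in replicate 2 (2.78%). Those 4 are the ones without a peak. The corresponding shares on II to V were 15.7% and 1.52%, and single autosomes ran from 12.2% to 18.2% in replicate 1. These counts hold for the deposited optimal intervals, some of them narrow: a replicate peak beside such an interval may still overlap the other replicate's peak. When whole replicate peaks were compared with each other, the strongest replicate 1 peaks on X that no replicate 2 peak overlapped lay in an intron of lin-14 (rank 193), in W05H9.3 (rank 238) and in coding sequence of F53A9.8 (rank 305). The strongest replicate 2 peaks that no replicate 1 peak overlapped lay 70 bp from F53B3.3 (rank 347), at the tRNA gene WBGene00000308 (rank 350) and 548 bp from F13E6.1 (rank 351).

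**Figure D5:**
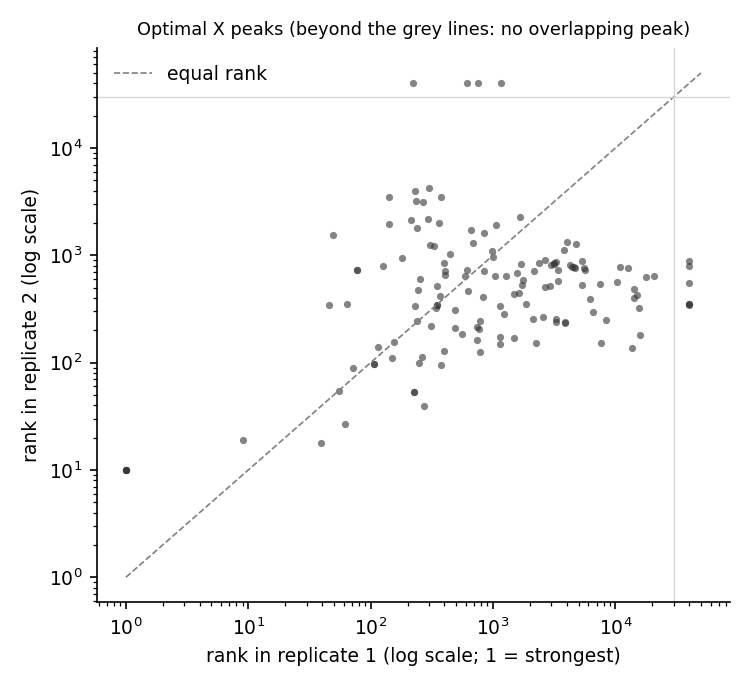
Each point is 1 of the 144 optimal X peaks, at the rank of its strongest overlapping peak in replicate 1 (horizontal) and in replicate 2 (vertical), both on log scales. Points beyond the grey lines have no overlapping peak in that replicate (6 and 4), summits that share an interval fall on 1 point, and the lower right holds the peaks that rank far lower in replicate 1.

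Short motifs around the summits were counted in windows of 150 bases on each side, on both strands. TTTTCAG, the letters of the worm splice acceptor, was in 11.8% of the optimal X windows (interval 7.03% to 18.2%), against 24.2% on II to V and 22.2% to 25.4% on the single autosomes. Of the pooled windows it was in 22.6% on X and 29.3% on II to V. TATAAA was in 30.6% of the optimal windows on X and 23.7% on II to V, and in 27.8% and 26.1% of the pooled ones. GAGAGA was in 29.2% on X and 31.8% on II to V, and AATAAA in 41.0% and 46.5%, differences within the X intervals. In the pooled list GAGAGA was in 21.5% on X and 22.2% on II to V, and AATAAA in 48.6% of both. GCGCAGG was in 0 of 144 X windows, which allows a share of up to 2.53% (exact 95% limit), and in 1.27% on II to V. In the pooled list it was in 0.727% of the X windows and 0.723% of those on II to V. Matches of different motifs may overlap. The median GC content of the optimal windows was 40.7% on X and 39.9% on II to V, against 35.2% and 35.4% of all bases.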

How the data were processed

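AMA-1 ChIP-seq peak lists of 2 biological replicates (1 group, replicate numbers from the labels) were used on build ce11. Per the README deposited with each sample, relaxed lists came from alignments and a control alignment, and the optimal list from the relaxed lists. The names of the aligner and of the peak caller were not given in the sources used here. The deposited signal value is the authors' score, whose scale differs between lists. The deposited −log10 q-values were not used, and the deposited summit offset gave the summit. The optimal list equalled the 1103 strongest pooled peaks.

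Summits were placed on the Ensembl release 115 annotation of WBcel235, the ce11 assembly, with 1-based coordinates. Exact binomial intervals and a two-sided exact permutation test over 5 chromosomes were used. The replicates come from separate samples per the labels, and no spread between animals was estimated. The members, lists and rules for named genes (the 20 strongest optimal X peaks, the strongest of each class and of each 20% of X, the 3 strongest unmatched peaks of each replicate, and list members) were chosen with earlier results of these data known, and other genes were named after their values were seen. Overlap counts were tested on simulated peaks. Tools were scipy 1.17.1, pandas 2.3.3, numpy 2.4.6 and matplotlib 3.10.9 under Python 3.11.15. Alternatives were other overlaps, list lengths, gene windows and build ce10.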

Additional observations from a re-analysis of the deposited data

How the results depend on the processing

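The first share below is that of replicate 1 peaks overlapped by replicate 2 and the second that of the reverse, each on X and then on II to V. They were 37.6% and 32.5%, then 25.1% and 32.2%, with overlap of at least 50% of both peaks. With summits within 100 bp they were 27.9% and 25.3%, then 18.01% and 24.7%. For the 27000 strongest peaks they were 56.3% and 49.5%, then 42.6% and 53.9%, and for the 10000 strongest 52.7% and 44.6%, then 37.1% and 47.8%. For the 1103 strongest against all of the other list they were 90.4% and 88.8%, then 89.9% and 92.7%. With equal numbers per chromosome, added after the data were seen, the first share turned below the autosomes: 47.5% and 48.2% with 3000 peaks and 42.1% and 44.3% with 1000 peaks. The second was 48.7% and 49.8%, then 42.5% and 44.2%. Build ce10 gave 58.6% and 51.5%, then 41.5% and 52.7%.

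Optimal peaks per Mb were 4.06 on X and 5.73 on II to V in the stronger part of the list (551 peaks) and 16.8 and 23.2 among the 2206 strongest pooled peaks. The share of genes with a summit was 1.03% on X and 1.73% on II to V, then 4.25% and 6.33%. With gene bodies only it was 1.94% and 2.28%, a smaller difference than the 2.23% and 3.29% with 500 bp upstream, and with 1000 bp upstream it was 2.45% and 3.75%. Without replicate 1 or 2, taking the 1103 strongest peaks of the other, the density on X was 7.62 to 8.35 and the gene share 1.98% to 2.42%. X made up 16.5% of the 10000 strongest peaks of replicate 2, against 16.6% for the mean autosome. The cause of these changes was not tested, apart from fewer or more peaks entering by construction. Density on ce10 was not run. No paired analysis was possible because there is 1 group. Depth is unknown, so what it limits cannot be stated.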
